A study of Mus musculus with 2 samples.

Results

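The insulin-like growth factor (IGF) and insulin genes described here are *Igf1*, *Igf2*, *Igf1r*, *Igf2r*, *Insr*, *Irs1*, *Irs2* and *Grb10*. They were taken by symbol from the deposited gene tables, and all 8 were found among the 25810 symbols listed. The tables come from 2 libraries of mouse mammary epithelial cells (MECs) at lactation day 3, 1 from wild type (WT) mice and 1 from *Igfbp7*-/- mice, which lack the first coding exon of *Igfbp7*, an IGF binding protein, in every cell of the body. The cells came from inguinal glands and had been depleted of lineage positive cells by magnetic separation. According to the methods these were cells carrying CD45, CD31 or Ter119, the markers of leukocytes, endothelial cells and erythroid cells, whereas the sample labels give CD35 in place of CD31. The labels give the background of both mice as C57BL/6, whereas the methods state that the knockout was made on CD1. No source used here says how many animals gave each library. With 1 library per genotype no difference between the genotypes could be tested, and every interval below is a 95% interval that covers the counting of reads only.

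IGF-1 and IGF-2 are secreted growth factors that bind the IGF-1 receptor, a tyrosine kinase closely related to the insulin receptor. Both receptors phosphorylate the docking proteins IRS-1 and IRS-2, which recruit phosphatidylinositol 3-kinase (PI3K). Through PI3K, AKT and TOR are activated and the FOXO transcription factors are inhibited. In the mammary gland IGF-1 is mostly a product of the stroma, and IGF and insulin signals support ductal growth, milk synthesis and the survival of alveolar cells.

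Reads on listed genes numbered 28262015 in WT and 25306845 in *Igfbp7*-/-, which were 82.3% and 72.3% of the mapped reads of these libraries. *Igfbp7* had 5224 reads in the WT library and 37 in the *Igfbp7*-/- library. RPM is the number of reads of a gene per 1000000 mapped reads, and RPKM is the RPM per kilobase of gene length. The limit of detection, set at 3 reads, was 0.0874 RPM (WT) and 0.0857 RPM (*Igfbp7*-/-). The lowest value of any of the 8 genes was far above it, 330 reads for *Igf1* in the *Igfbp7*-/- library.

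The RPM of *Irs2* in the *Igfbp7*-/- library was 2.67 times that in the WT library. Both ligands were lower, *Igf2* by 2.48 times and *Igf1* by 1.76 times. These are shares of the reads of whole libraries, which also differed in markers of other cell types, as given below. The 3 receptor genes, *Irs1* and *Grb10* differed by less than 1.5 times, the fold used to count a gene as changed. *Insr* was just under that fold, at 1.49. Thus 3 of the 8 genes differed by at least 1.5 times, 1 higher and 2 lower. Of all 14026 genes that reached 1 RPM in WT or *Igfbp7*-/-, 44.5% differed by that much, 21.4% higher and 23.0% lower, so that the count for the 8 genes is near that of genes in general. Ratios are those of *Igfbp7*-/- to WT, and their median for the 8 genes was -0.0010 on the log2 scale, beside 0.035 for all genes. For all ratios 0.1 RPM was added to both values.

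The order of the 8 genes by level per gene length was also not the same in the 2 libraries. In WT it ran from *Irs2* (16.7 RPKM) through *Igf2r* (14.4 RPKM), *Igf2* (13.6 RPKM), *Grb10* (9.85 RPKM), *Igf1r* (6.16 RPKM), *Insr* (4.70 RPKM) and *Igf1* (2.34 RPKM) to *Irs1* (1.53 RPKM). Of these neighbours only *Igf2r* and *Igf2* had counting intervals that overlapped. In *Igfbp7*-/- the order ran from *Irs2* (44.6 RPKM) through *Igf2r* (13.9 RPKM), *Grb10* (10.2 RPKM), *Insr* (7.02 RPKM), *Igf1r* (5.71 RPKM), *Igf2* (5.46 RPKM) and *Irs1* (1.63 RPKM) to *Igf1* (1.32 RPKM). There the intervals of *Igf1r* and *Igf2* overlapped, as did those of *Irs1* and *Igf1*. *Igf2* moved from the third place to the sixth, and *Insr* from the sixth to the fourth. The order rests on the gene lengths that the authors used. For *Igf1r* this length was 11978 bases, whereas the longest *Igf1r* transcript in the GENCODE M1 annotation has 4181 bases. For the other 7 genes these lengths were closer, the widest gap being that of *Igf2* (4038 and 4722 bases).

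**Figure D1:**
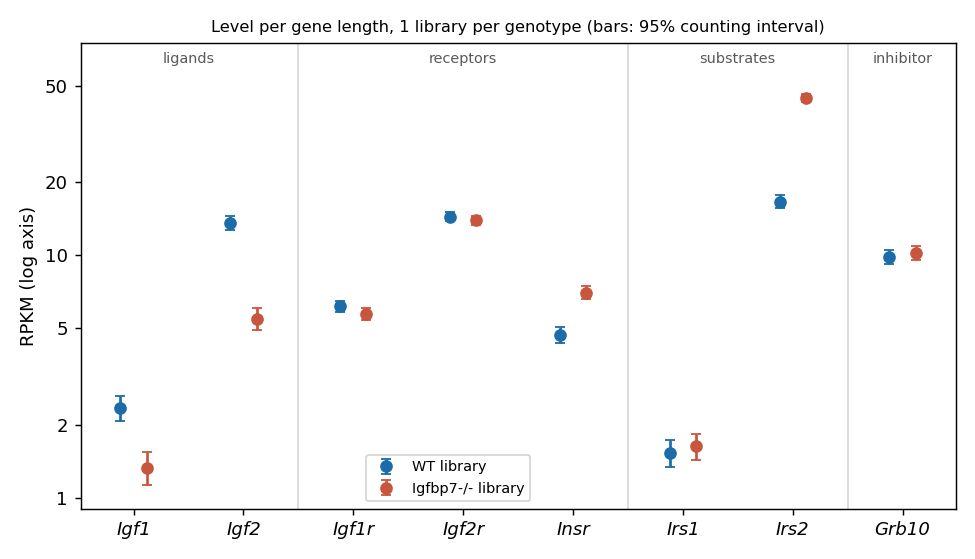
The plot shows RPKM on a log axis for the 8 genes in the WT library (blue) and the *Igfbp7*-/- library (red), with bars for the 95% counting interval. The ligands are lower in the *Igfbp7*-/- library, *Irs2* stands highest in both libraries, and the points of *Igf2r*, *Irs1* and *Grb10* lie close together.

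*Igf1*, the gene of the growth factor through which growth hormone acts, lies on the plus strand of chromosome 10 (chr10:87321010-87399792, mouse build NCBIM37). It had 572 reads (16.7 RPM) in the WT library and 330 reads (9.42 RPM) in the *Igfbp7*-/- library. The WT library was thus the higher one, with a log2 ratio of -0.82 (interval -1.11 to -0.54), and 82.6% of all genes had a higher ratio. The interval reaches past the 1.5-fold line, so that this depth does not settle on which side of it *Igf1* lies.

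*Igf2*, which encodes a growth factor of fetal tissues that is also made in the adult mammary gland, lies on the minus strand of chromosome 7 (chr7:149836673-149852721). It had 1884 reads (54.9 RPM) in the WT library and 772 reads (22.05 RPM) in the *Igfbp7*-/- library. Its log2 ratio was -1.31 (-1.49 to -1.14), the lowest of the 8 genes, and its whole interval was past the 1.5-fold line. An antisense transcript, *Igf2as*, overlaps 7124 bases of *Igf2* on the opposite strand. It had 1 read in the WT and 2 reads in the *Igfbp7*-/- library, and whether the counting used the strand of the reads is not given in the sources used here.

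Most markers of fibroblasts, adipocytes, leukocytes, endothelial cells and pericytes were lower in the *Igfbp7*-/- library as well, whereas those of erythroid cells were not. Of 6 fibroblast markers, 4 were lower by at least 1.5 times, and their summed level was 9060 RPM against 4582 RPM in *Igfbp7*-/-, a log2 ratio of -0.98. Among them *Col1a1*, a collagen I chain, had 1530 and 894 RPM, whereas *Pdgfra*, a receptor on fibroblasts, had 97.0 and 132.8 RPM. Of the 4 adipocyte markers that reached 1 RPM, 3 were lower and 1, *Lep*, was higher. The list of 6 summed to 568.3 RPM (WT) and 192.9 RPM (*Igfbp7*-/-), of which *Fabp4* alone made up 543.5 and 173.4 RPM. Of 5 macrophage markers 4 were lower, but the sum was 606.0 RPM (WT) and 731.4 RPM (*Igfbp7*-/-), of which *Cd14* made up most. All 6 leukocyte markers were lower (80.1 and 25.8 RPM summed), as were 4 of 5 endothelial markers (1055 and 352.3 RPM summed) and 3 of 4 pericyte markers (159.1 and 122.6 RPM summed). No marker of these lists was at 0 in either library. Of the 4 erythroid markers with at least 1 RPM none differed by 1.5 times (1066 and 1243 RPM summed). Fewer cells of a type, in the gland or after lineage depletion, and less RNA per cell cannot be told apart in such libraries. The part of these cell types in the lower *Igf1* and *Igf2* was not tested.

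**Figure D2:**
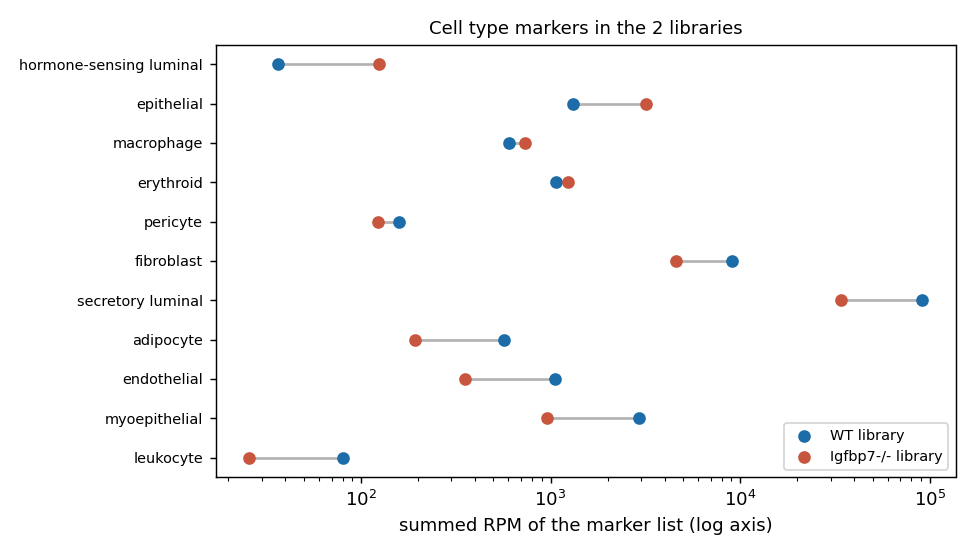
The plot shows the summed RPM of 11 cell type marker lists on a log axis in the WT library (blue) and the *Igfbp7*-/- library (red). The fibroblast sum goes from 9060 to 4582 RPM and the leukocyte sum from 80.1 to 25.8 RPM, while the epithelial keratin and adhesion markers go from 1311 to 3191 RPM.

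*Igf1r*, which encodes the receptor tyrosine kinase for both ligands, lies on the plus strand of chromosome 7 (chr7:75097713-75371484). It had 2532 reads (73.8 RPM) in the WT library and 2395 reads (68.4 RPM) in the *Igfbp7*-/- library. The libraries differed little, with a log2 ratio of -0.11 (-0.22 to 0.0056) whose interval included a ratio of 1. When the reads were scaled to listed genes the sign turned, to 0.079.

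*Igf2r*, the gene of the mannose 6-phosphate receptor, which takes IGF-2 up for breakdown and has no kinase, lies on the minus strand of chromosome 17 (chr17:12875272-12962530). It was the most abundant of the 8 genes by RPM in WT, with 4433 reads (129.1 RPM), and had 4363 reads (124.6 RPM) in the *Igfbp7*-/- library. The log2 ratio was -0.052 (-0.14 to 0.034), and the sign turned to 0.14 with scaling to listed genes. *Airn*, the noncoding RNA that silences *Igf2r* on the paternal chromosome, overlaps 28354 bases of it on the opposite strand and had 224 reads in WT and 217 in *Igfbp7*-/-.

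*Insr*, which encodes the insulin receptor, lies on the minus strand of chromosome 8 (chr8:3150922-3279617). It had 1509 reads (44.0 RPM) in the WT library and 2300 reads (65.7 RPM) in the *Igfbp7*-/- library. Its log2 ratio, 0.58 (0.45 to 0.71), was the highest of the 3 receptor genes and the only one whose interval left out a ratio of 1. The fold line, 0.585 on this scale, lies within that interval. With scaling to the reads on listed genes the ratio of *Insr* passed the line, at 0.77, and it was then counted as higher, whereas without the 20 most abundant genes it was 0.44. No other gene of the 8 came to be counted as changed through a change of scaling.

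*Irs1*, the docking protein gene first found as a substrate of the insulin receptor, lies on the minus strand of chromosome 1 (chr1:82229676-82287991). It had 480 reads (14.0 RPM) in the WT library and 522 reads (14.9 RPM) in the *Igfbp7*-/- library. The log2 ratio was 0.092 (-0.17 to 0.35), and it turned to -0.047 without the 20 most abundant genes. *Irs2*, the gene of the second docking protein, lies on the minus strand of chromosome 8 (chr8:10986980-11008458). It had 2298 reads (66.9 RPM) in the WT library and 6271 reads (179.1 RPM) in the *Igfbp7*-/- library. Its log2 ratio was 1.42 (1.32 to 1.52), higher than those of 95.7% of all genes, and its whole interval was past the 1.5-fold line. In the *Igfbp7*-/- library, *Irs2* was thus the most abundant of the 8 genes on both scales.

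The substrates lay on opposite sides of the fold line, and their promoters are shown for comparison. In RefSeq, promoter windows were found for 7 of the 8 genes, not for *Insr*, and 11 windows in all. The 250 bases before the RefSeq gene start of *Irs1* (chr1:82288015-82288264, minus strand) and of *Irs2* (chr8:11008930-11009179, minus strand) were located by exact match at 1 place each in NCBIM37. They are printed 5′ to 3′ on the strand of the gene, and the capitals mark the motifs that were searched on both strands, the E-box CACGTG and the core of an insulin response element, TGTTTTG, letters of the kind that FOXO proteins bind.
Irs1: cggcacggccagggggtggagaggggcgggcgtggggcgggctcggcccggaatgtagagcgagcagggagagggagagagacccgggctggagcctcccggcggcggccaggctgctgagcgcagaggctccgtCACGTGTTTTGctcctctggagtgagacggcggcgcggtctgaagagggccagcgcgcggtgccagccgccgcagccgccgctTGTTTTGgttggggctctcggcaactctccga
Irs2: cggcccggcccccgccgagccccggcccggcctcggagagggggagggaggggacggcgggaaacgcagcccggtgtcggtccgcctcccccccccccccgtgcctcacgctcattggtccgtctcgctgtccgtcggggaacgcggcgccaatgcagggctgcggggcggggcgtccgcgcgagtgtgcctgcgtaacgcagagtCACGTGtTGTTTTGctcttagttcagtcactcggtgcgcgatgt

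Both windows were rich in G and C (72.4% for *Irs1* and 72.8% for *Irs2*). Each held 1 E-box, which began 115 bases before the RefSeq start of *Irs1* and 44 bases before that of *Irs2*. All distances here count from RefSeq starts, whereas the gene positions given above are those of GENCODE M1. In GENCODE M1 *Irs1* starts at chr1:82287991 and *Irs2* at chr8:11008458, so neither window reaches that start, and the gap is wider for *Irs2*. The TGTTTTG core lay beside the E-box in both, at 111 bases before the start of *Irs1*, where it shares letters with the E-box, and at 37 bases before the start of *Irs2*, where 1 base lies between them. *Irs1* held another copy 32 bases before its start. The longest run that the windows share has 10 bases and includes the E-box. Of all 32851 windows of this length, 6.02% held CACGTG and 5.56% held TGTTTTG. Another motif, TGTTTAC, the FOXO consensus, was in 3.17% of all windows and in none of the 11. Of the other genes only *Igf2r* held any of the 3 motifs, with CACGTG at 48 and 7 bases before its start. Both windows thus hold CACGTG and TGTTTTG, with unlike copies and spacing of TGTTTTG. A match of letters is not a measured binding site, and the part of these motifs in the levels of *Irs1* and *Irs2* was not tested.

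*Grb10* encodes an adaptor that binds the active insulin and IGF-1 receptors and inhibits them. It lies on the minus strand of chromosome 11 (chr11:11830511-11938686) and had 1721 reads (50.1 RPM) in the WT library and 1817 reads (51.9 RPM) in the *Igfbp7*-/- library. The libraries were close to each other, with a log2 ratio of 0.050 (-0.086 to 0.19), which turned to -0.090 without the 20 most abundant genes.

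**Figure D3:**
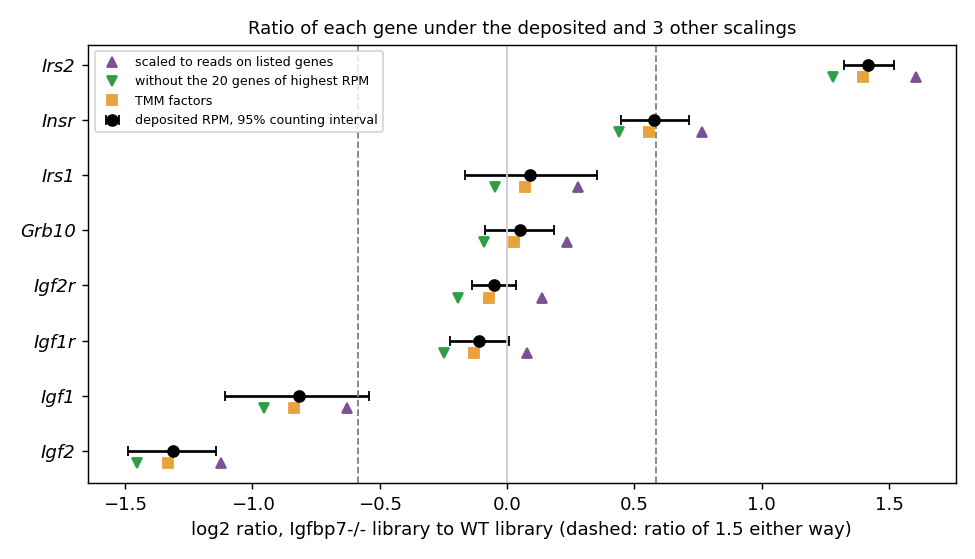
The plot shows the log2 ratio of the *Igfbp7*-/- to the WT library for each gene (black, with the 95% counting interval) and the same ratio under 3 other scalings (coloured), with dashed lines at a ratio of 1.5 either way. *Irs2* at 1.42 and *Igf2* at -1.31 lie outside the lines with all 4 scalings, and *Insr* at 0.58 lies just inside the upper line.

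The proportions between the genes of 1 library do not depend on how the library is scaled. Pairs by role, chosen after the single values had been seen, were compared in this way and are given as a description. *Insr* had 0.763 times the per-length level of *Igf1r* in the WT library and 1.23 times in the *Igfbp7*-/- library. The proportion of insulin to IGF-1 receptor transcripts was thus 1.61 times as large in *Igfbp7*-/- (interval 1.43 to 1.82). With the gene lengths of the authors, *Insr* was the lower of these genes in WT and the higher in *Igfbp7*-/-. That order, like each level set against *Igf1r* below, rests on the 11978 bases used for *Igf1r*, beside 4181 bases in GENCODE M1. The change of a proportion between the libraries does not depend on gene length. *Irs2* had 10.9 times the per-length level of *Irs1* in WT and 27.4 times in *Igfbp7*-/-, a proportion 2.51 times as large (2.07 to 3.04).

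For ligands against receptors the proportions were smaller in *Igfbp7*-/-. *Igf2* had 2.21 times the per-length level of *Igf1r* in WT and 0.956 times in *Igfbp7*-/-, a proportion 2.31 times as small (1.997 to 2.67). Against *Igf2r*, the receptor that removes IGF-2, *Igf2* went from 0.942 to 0.392 times, which is 2.40 times as small (2.10 to 2.75). *Igf1* had 0.380 times the per-length level of *Igf1r* in WT and 0.232 times in *Igfbp7*-/-, 1.64 times as small (1.33 to 2.03). *Igf2* was the more abundant ligand in both libraries, by 5.81 times in WT and 4.13 times in *Igfbp7*-/- on the per-length scale. The proportion of *Igf1r* to *Igf2r* was 0.427 in WT and 0.410 in *Igfbp7*-/- (0.961 times, interval 0.869 to 1.06). The inhibitor *Grb10* had 2.10 times the per-length level of *Insr* in WT and 1.45 times in *Igfbp7*-/-, 1.44 times as small (1.26 to 1.65).

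Markers of epithelial cells did not move in 1 direction. Of 5 general epithelial markers 3 were higher in *Igfbp7*-/- by at least 1.5 times and none was lower, and they summed to 1311 and 3191 RPM. These markers of the labelled cell type were present in both libraries, the lowest at 105.5 RPM in WT and at 291.8 RPM in *Igfbp7*-/-. All 4 markers of hormone-sensing luminal cells were higher. They summed to 36.7 RPM (WT) and 124.7 RPM (*Igfbp7*-/-), of which *Prlr* alone made up 30.2 and 102.6 RPM. Of 6 myoepithelial markers 5 were lower (2942 and 957.9 RPM summed), and of 5 markers of secretory luminal cells, mostly milk protein genes, 4 were lower (90864 and 33910 RPM summed). The part of these cell types in the higher *Irs2* and *Insr* was not tested.

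The genes around the 8 were followed through 7 lists by role, with 105 other genes that reached 1 RPM. Of these, 20 were higher and 19 lower in *Igfbp7*-/- by at least 1.5 times, and the median log2 ratio was 0.018. Together that is 39 of 105, beside 44.5% of all genes (21.4% higher and 23.0% lower). These shares of all genes are also the ones to set beside the counts of each list below.

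Of 17 receptor adaptors and PI3K genes 2 were higher and 1 was lower, with a median log2 ratio of 0.31. *Pik3cb*, a catalytic PI3K subunit that is made in most cells, had 27.6 RPM in the WT and 87.1 RPM in the *Igfbp7*-/- library (log2 ratio 1.66, interval 1.51 to 1.81). *Pdpk1*, the kinase that phosphorylates AKT, had 73.1 and 125.9 RPM (0.78, 0.68 to 0.89). *Pik3cd*, the catalytic subunit typical of leukocytes, was the lower one, with 14.97 and 5.94 RPM (-1.32, -1.68 to -0.9998). With scaling to listed genes 8 genes of the list were higher.

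Of 16 genes of the TOR branch 3 were higher and none was lower, with a median of 0.13. *Tsc1*, which holds TOR in check, had 32.7 RPM in WT and 71.0 RPM in *Igfbp7*-/- (1.12, 0.97 to 1.27), and *Rictor*, a subunit of TOR complex 2, had 61.4 and 98.3 RPM (0.68, 0.57 to 0.79). Without the 20 most abundant genes the ratio of *Rictor* was under the fold line, at 0.54. The last was *Mlst8*, named after its values were seen, with 3.47 and 7.11 RPM. *Tsc1* alone kept its whole interval past the fold line. None of the 12 genes of the Ras and ERK branch differed by 1.5 times, with log2 ratios from -0.44 to 0.54, and with scaling to listed genes 2 were higher.

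Of 14 negative regulators of the receptors and of PI3K signals 5 were higher and 2 were lower, with a median of 0.020. The highest ratio was that of *Grb7*, an adaptor of the same family as *Grb10*, with 3.23 RPM in WT and 11.7 RPM in *Igfbp7*-/- (1.82, 1.43 to 2.33). *Trib3*, a pseudokinase that binds AKT, had 17.7 and 47.0 RPM (1.41, 1.22 to 1.61). *Inpp5d*, a lipid phosphatase of blood cells, was lower, with 30.2 and 11.2 RPM (-1.42, -1.68 to -1.19). The leukocyte markers were lower in the same library, as were most endothelial and myoepithelial markers. The part of any cell type in the lower *Pik3cd* and *Inpp5d* was not tested.

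Of 17 FOXO factors and FOXO target genes 5 were higher and 2 were lower, with a median of 0.17. *Foxo3* itself had 1277 (WT) and 4217 (*Igfbp7*-/-) reads (1.69, 1.57 to 1.83), and *Pdk4*, which restrains the use of glucose, had 81.9 and 915.4 RPM. The lower genes were *Sod2*, a mitochondrial superoxide dismutase, with 138.6 and 88.4 RPM (-0.65, -0.74 to -0.56), and *Fbxo32*, a ubiquitin ligase subunit, with 90.9 and 59.3 RPM (-0.62, -0.73 to -0.50). Neither of them was lower by 1.5 times with scaling to listed genes.

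Of 13 genes of extracellular IGF handling that reached 1 RPM, 2 were higher and 6 were lower, with a median of -0.46. *Igfbp7* is one of the 6. Another, *Pappa2*, had 41 reads in WT and 25 in *Igfbp7*-/-, with an interval (-1.93 to 0.34) that included a ratio of 1. *Stc1*, a secreted inhibitor of the proteases that cleave IGF binding proteins, had 80.9 RPM in WT and 11.7 RPM in *Igfbp7*-/- (-2.78, -3.01 to -2.58). *Pappa*, such a protease, which frees IGF from its binding proteins, had 18.9 and 29.8 RPM (0.65, 0.45 to 0.86), and 0.51 without the 20 most abundant genes, which is under the fold line. The higher gene beside it was *Igfbp5*, an IGF binding protein known for its rise in involuting glands, with 250.5 and 763.3 RPM. *Igfbp3* (645.2 and 160.7 RPM) and *Igfbp2* (21.96 and 6.45 RPM), named after their values were seen, were lower. *Igfbp4* and *Igfbp6* differed by less than 1.5 times. The insulin genes *Ins1* and *Ins2* were at 0 in both libraries.

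**Figure D4:**
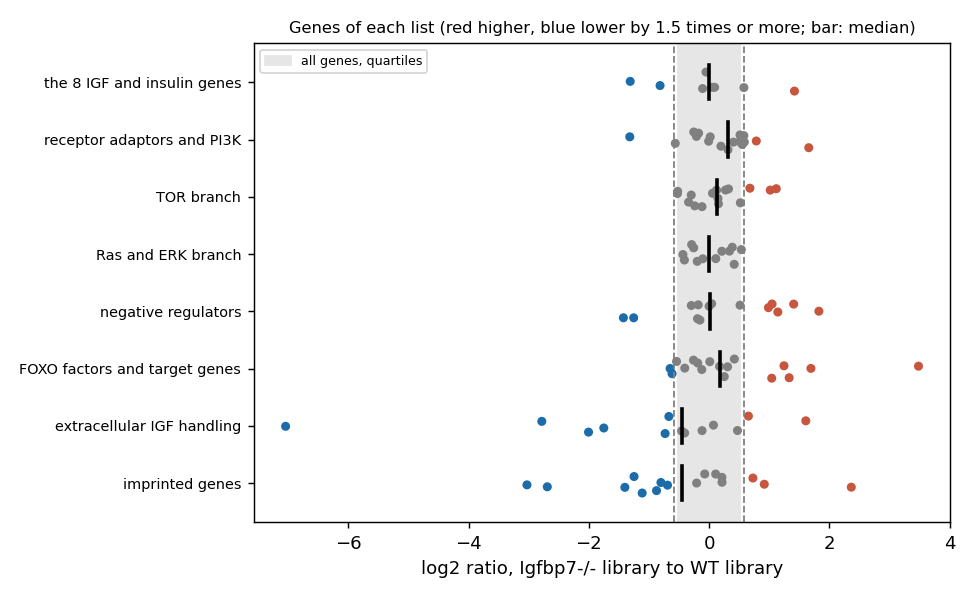
Each point is a gene that reached 1 RPM, placed by its log2 ratio of the *Igfbp7*-/- to the WT library, in the 8 genes and the 7 lists around them, with red and blue for at least 1.5 times higher or lower and a black bar for the median of each list. The grey band gives the quartiles of all genes, -0.52 to 0.51, and the Ras and ERK genes lie between -0.44 and 0.54.

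Of all genes that differed by at least 1.5 times, 48.2% were higher in *Igfbp7*-/-. That share was 62.2% with scaling to the reads on listed genes and 37.9% without the 20 most abundant genes. These scalings moved the log2 ratio of every gene by about the same amount, and the median of all genes by 0.19 and -0.14.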

How the data were processed

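Poly(A) RNA of 1 WT and 1 *Igfbp7*-/- sample was sequenced as paired ends on a SOLiD instrument. The submitters' processing notes name Bowtie 0.12.3, SAMtools 0.1.15 and mm9 (NCBIM37), whereas the methods name a human build. The library preparation kept the strand of the RNA, but the gene annotation and any use of strand in the counting are not given in the sources used here. The authors deposited, for each gene, its count of reads as mapped. The deposited RPM is that count per 1000000 mapped reads (34327854 in WT, 35016847 in *Igfbp7*-/-), a total larger than the reads on listed genes. The deposited RPKM is the RPM per kilobase of a gene length chosen by the authors. Blank counts were read as 0, and 50 rows without a symbol were left out. Methods state that ribosomal RNA was filtered out, but its rows hold 2.95% and 3.15% of the mapped reads.

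Ratios were computed from the deposited RPM plus 0.1 RPM, for genes that reached 1 RPM in WT or *Igfbp7*-/-. Low counts were mostly even (75.8% and 74.1% of counts from 1 to 20), so the 95% Clopper-Pearson intervals of ratios, exact Poisson intervals of levels and conditional intervals of proportions were computed on read pairs, without the added 0.1 RPM. No p-value was computed. Lists were matched by symbol or RefSeq synonym, and the members and lists were chosen with earlier results of these data known. Named list genes were the 2 highest and 2 lowest ratios past 1.5 times, with at least 10 RPM in one library. Counts were also simulated with the counting error of read pairs only, and the changed genes were drawn from those with a mean of at least 10 RPM. Of 100 genes changed 2-fold in simulated counts 99% passed 1.5 times, of 100 changed by 1.5-fold itself 52% did, and 2.88% of 13554 unchanged genes did. These shares leave out variation between animals and between libraries, so they are not error rates for the comparison of the genotypes. Python 3.11.15, scipy 1.17.1, edgeR 4.0.16 and DESeq2 1.42.0 (the last ones for scaling factors only) were used. RefSeq promoter sequences of GRCm38.p6 were located in NCBIM37 by exact match.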

Additional observations from a re-analysis of the deposited data

How the results depend on the processing

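Each genotype had 1 library, so no library could be left out and no paired analysis was possible. Of the 8 genes, the 3 counted as changed (*Irs2*, *Igf1* and *Igf2*) kept their direction under all 8 alternatives that recompute a ratio. Their log2 ratios ranged from 1.28 to 1.61, from -0.96 to -0.63 and from -1.45 to -1.13. These alternatives moved the median of all genes by 0.19 or less. Shifts of that size could not turn the direction of these 3 ratios, so the kept direction is not a test of it. With scaling to listed genes 2 of the 8 genes were higher, *Insr* being added. *Igf1* was no longer counted with a ratio of at least 2 or with the whole interval past 1.5 times, which left 1 lower gene. The ratios of *Igf1r* and *Igf2r* changed sign with scaling to listed genes, and those of *Irs1* and *Grb10* without the 20 most abundant genes. Of the counts higher, lower and in all for the single lists, 226 of 252 alternative values stayed within 1.5 times. In the 7 lists 32 genes were higher with scaling to listed genes, and 12 were lower with a ratio of at least 2. Of all genes, 4741 were higher and 5279 lower (10020 in all) without a minimum, 1696 and 1672 (3368) with 10 RPM in one library, 1352 and 1936 (3288) with a ratio of at least 2, and 1577 and 2063 (3640) with the whole interval past 1.5 times, beside 3006 and 3231 (6237) in the report. Fewer genes enter with the higher minimum and more without one. The other alternatives, pseudocounts of 1 and 0.01 RPM, RPKM, TMM factors, median-of-ratios size factors and centring, left these counts within 1.5 times. Depth limits *Igf1* and *Irs1* most, whose intervals were the widest of the 8.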

Other observations

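*Igf2*, *Igf2r* and *Grb10* are imprinted genes, that is, genes of which mainly the copy of 1 parent is active, and other imprinted genes, some of them neighbours of these, were also measured. Of 16 that reached 1 RPM, 3 were higher and 8 were lower in *Igfbp7*-/- by at least 1.5 times, with a median log2 ratio of -0.45. Together that is 11 of 16, beside 44.5% of all genes, of which 21.4% were higher and 23.0% lower. The list is described and was not tested. *H19*, the noncoding RNA gene that lies next to *Igf2* and shares its enhancers, had 4.37 RPM in the WT and 3.77 RPM in the *Igfbp7*-/- library (log2 ratio -0.21), while *Igf2* had 54.9 and 22.05 RPM. The lowest ratio was that of *Mest*, a paternally expressed gene of mesenchymal tissues, with 53.1 and 6.43 RPM (-3.03, interval -3.35 to -2.77). *Cdkn1c*, an inhibitor of the cell cycle from the maternal copy, had 10.9 and 4.54 RPM (-1.25, -1.67 to -0.88). *Peg3*, a paternally expressed zinc finger gene, had 12.4 and 64.1 RPM (2.36, 2.16 to 2.59), and *Cobl*, a neighbour of *Grb10*, had 42.6 and 80.5 RPM (0.92, 0.79 to 1.05). With a ratio of at least 2, 5 were lower and 1 was higher.

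For each of the 8 genes, the gene nearest to it in per-length level in both libraries was found among 13896 genes, by distance on the log2 RPKM scale. With only 2 libraries such likeness is common and says nothing of function. The nearest genes were *Vash1* for *Igf1*, *Zbp1* for *Igf2*, *Pqbp1* for *Igf1r*, *Gatad1* for *Igf2r*, *Psmd10* for *Insr*, *Lysmd4* for *Irs1*, *Ezr* for *Irs2* and *Eps15* for *Grb10*, at distances from 0.0067 to 0.040. *Ezr*, which encodes the cytoskeletal linker ezrin, had 17.0 RPKM in WT and 43.8 RPKM in *Igfbp7*-/-.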
